A study of Danio rerio with 11 samples.

Results

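The 9 genes described here encode liver proteins of the zebrafish, most of them secreted into blood plasma: fabp10a, tfa, cp, plg, f7i, a2m2e, a2m2f, a2m2h and ces3. They were taken as every probe set whose platform annotation gives 1 of these symbols alone, which found 10 probe sets (2 for plg, 1 for each other gene) among the 9803 tested, which cover 6466 gene symbols. All 10 probe sets reached the log2 value of 6 in some array that testing required, but those of f7i and a2m2f passed it only through arrays at 96 h post fertilization (hpf). A further 5 probe sets are annotated to 1 of these genes together with another gene, and their values are given without a gene name. Measurements are Affymetrix array signals on the log2 scale from total RNA of whole zebrafish embryos; the strain was not given in the sources used here. Embryos were kept at 30 to a cup in 100 ml of zebrafish medium, and each array carried pooled RNA of embryos. The controls were in medium without emulsion and were collected at 48 hpf (1 array), 72 hpf (3 arrays) or 96 hpf (2 arrays). Exposed embryos spent 48 h with 250 mg of an oil emulsion spread on the cup bottom. The emulsions were gathered on the shoreline at Gulfport, Fort Morgan or Perdido Key after the Deepwater Horizon blowout. The Gulfport emulsion was tested over 0 to 48, 24 to 72 and 48 to 96 hpf, and the other emulsions over 24 to 72 hpf, with 1 array for each.

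Hepatocytes make most of the proteins of blood plasma and release them through the secretory pathway. These proteins carry lipids, iron and copper, control clotting and its reversal, and block proteases. In zebrafish the liver buds from the gut tube during the embryonic period and differentiates and grows through the ages sampled here, so transcripts of plasma proteins are also used as signs of liver maturation. The RNA came from whole embryos, so fewer liver cells and less RNA per liver cell cannot be told apart, and RNA from other tissues that express these genes is part of each value.

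The exposure labels were checked with cyp1a, the cytochrome P450 induced through the aryl hydrocarbon receptor, whose signal was 24.2-fold to 78.5-fold above the controls of the same age in the 5 exposed arrays. The median signal of an array ranged from 6.36 to 6.42 and its lower quartile from 4.72 to 4.82. Whether the replicate controls were separate cups or separate spawnings is not in the labels. The p-values therefore reflect only the spread among the arrays at hand, some of which may be technical. Single exposed arrays were assumed to vary like the controls.

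**Figure D1:**
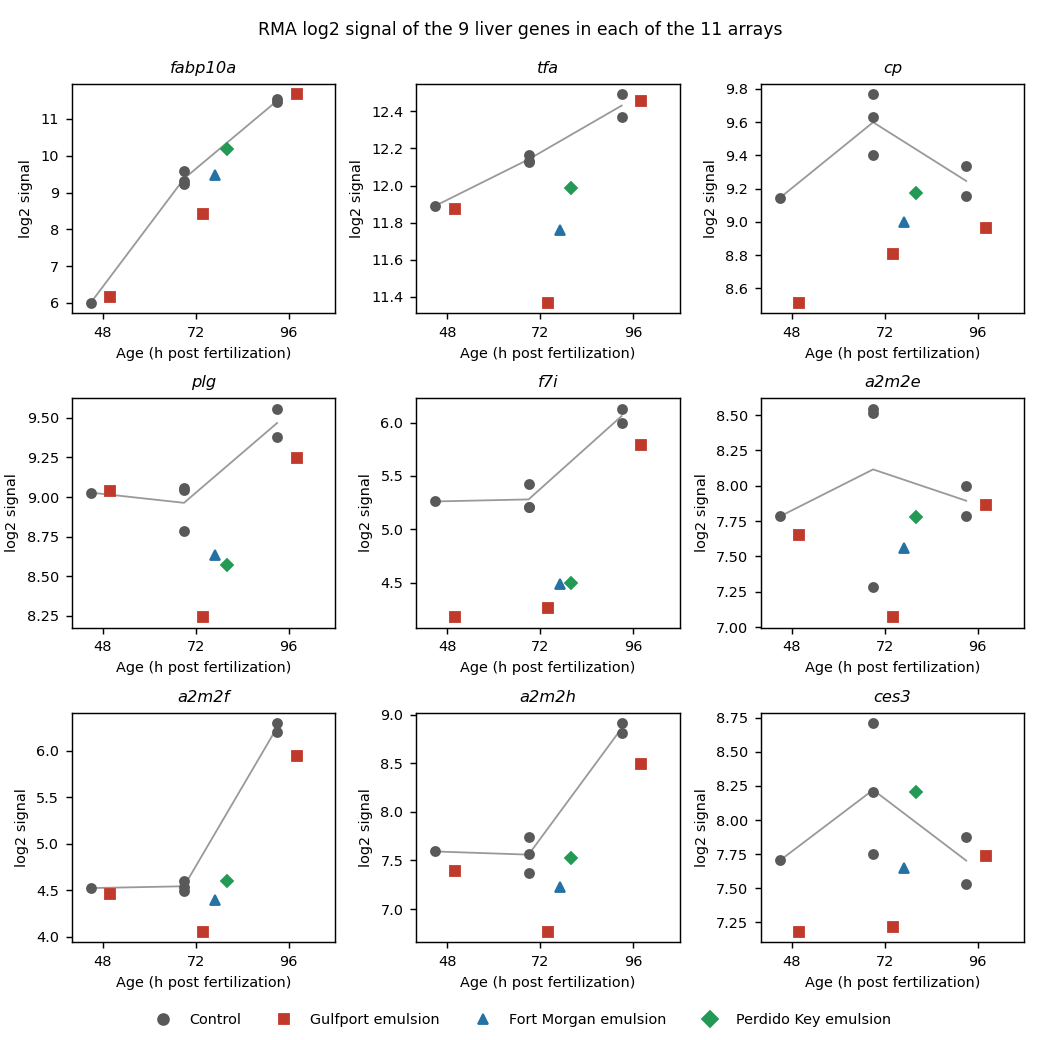
Signal of each gene (log2, vertical axes) against age in hpf in the 11 arrays, with 1 panel per gene (the brighter probe set for plg), a symbol for controls and for each emulsion set side by side at each age, and a grey line through the control means. In the fabp10a panel the controls climb from 6.01 at 48 hpf to 11.54 at 96 hpf, and at 72 hpf the Gulfport array (8.41) lies below all 3 controls and the Perdido Key array (10.19) above them.

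Unexposed embryos gave the course of each gene with age. Between 72 and 96 hpf fabp10a and a2m2h rose, and between 48 and 72 hpf only fabp10a did. With all controls plg, f7i and a2m2f also passed for the later interval, with limits given below. Of the 9 genes, 5 were higher at 96 than at 72 hpf by limma at an adjusted p of 0.05, against 6.29% of all probe sets tested. F7i and a2m2f entered the test only through their 96 hpf values, which had to be the higher ones. Nothing is therefore read from that count or from the p-values of f7i and a2m2f for this interval. Without the filter 5 of 9 were again higher, beside 705 of 15502 probe sets. From 48 to 72 hpf 1 of 9 was higher, against 9.23% of all probe sets, and no member was lower in either interval, against 3.31% and 8.71%. The median difference from 72 to 96 hpf was 0.50 for the 9 genes and -0.04 for all probe sets tested. It includes f7i and a2m2f, so it is not read either. From 48 to 72 hpf the median of the 9 was 0.25, beside -0.03 for all. Markers of neighbouring organs rose over the later interval too. Of exocrine pancreas markers tested, 14 of 15 were higher at 96 than at 72 hpf (median 3.68), as were 7 of 7 intestinal markers (median 1.86). Some of these also entered the test only through 96 hpf arrays, such as cel.1 and slc15a1b (72 hpf control means 4.34 and 3.21). Nothing is read from these counts either. The part of these organs in the age differences of the 9 genes was not tested.

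Fabp10a, the liver-type fatty acid and bile acid binding protein, is the standard marker of zebrafish hepatocytes. It works inside the cell rather than in plasma. Its control signal was 6.01 at 48 hpf, 9.30, 9.24 and 9.59 at 72 hpf, and 11.54 and 11.45 at 96 hpf. It rose by 3.37 from 48 to 72 hpf (limma, adjusted p = 2.52e-05) and by 2.12 from 72 to 96 hpf (SE 0.13, adjusted p = 4.19e-05), with no overlap between ages. Fabp10a had the widest range of the 9 genes over the 11 arrays. At 72 hpf the Gulfport array read 8.41, the Fort Morgan array 9.47 and the Perdido Key array 10.19. These lay below, within and above the 3 controls, so their mean hardly differed from the control mean (difference -0.02, 95% confidence interval -0.90 to 0.86, limma adjusted p = 0.995). The Gulfport arrays at 48 and 96 hpf read 6.16 and 11.68, each above every control of its age, with differences of 0.15 and 0.18 from the control means.

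Tfa encodes transferrin, the iron carrier of plasma. Its control signal was 11.89 at 48 hpf, 12.12, 12.13 and 12.16 at 72 hpf, and 12.37 and 12.49 at 96 hpf. The ages did not overlap, but the difference of 0.29 from 72 to 96 hpf did not pass the threshold (limma, adjusted p = 0.111). At 72 hpf the exposed arrays read 11.37 for Gulfport, 11.76 for Fort Morgan and 11.99 for Perdido Key, all below the controls, whose range was the narrowest of the 9 genes at that age. At 48 and 96 hpf the Gulfport arrays read 11.88 and 12.45, close to their controls. A pair of probe sets annotated to both gstr and tfa gave the same order of the exposed arrays at 72 hpf. The brighter one read 11.90, 12.30 and 12.44 for Gulfport, Fort Morgan and Perdido Key, against 12.78, 12.62 and 12.91 in the controls. The dimmer one read 8.40, 8.56 and 8.88, against 8.95, 8.81 and 8.72, so that there the Perdido Key array lay within the controls.

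Cp encodes ceruloplasmin, which carries copper in plasma and oxidizes iron so that transferrin can bind it. Its control signal was 9.15 at 48 hpf, 9.40, 9.77 and 9.63 at 72 hpf, and 9.15 and 9.34 at 96 hpf. It was thus highest at 72 hpf, though neither step passed the threshold (0.45, adjusted p = 0.109, and -0.35, adjusted p = 0.141, limma). The exposed arrays read 8.51 for Gulfport at 48 hpf, 8.81, 8.998 and 9.17 for Gulfport, Fort Morgan and Perdido Key at 72 hpf, and 8.96 for Gulfport at 96 hpf. Every exposed array lay below every control of its age. The same was true of f7i, which makes 2 of 9 genes, against 2.05% of all probe sets tested. It was also true of the dimmer of the plg probe sets, though not of the brighter one that stands for the gene. F7i entered the test only through a 96 hpf control, so nothing is read from its place in that count.

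Plg encodes plasminogen, whose active form plasmin dissolves fibrin clots, and f7i encodes a relative of coagulation factor VII that is described in zebrafish as an inhibitor of clotting. The brighter plg probe set read 9.03 in the 48 hpf control, 8.79, 9.05 and 9.06 at 72 hpf, and 9.38 and 9.56 at 96 hpf. The rise of 0.50 from 72 to 96 hpf passed the threshold (limma, adjusted p = 0.0442), but not when any 1 of the 5 controls of these ages was left out (adjusted p from 0.0597 to 0.248). The other plg probe set rose by 0.39 without passing (adjusted p = 0.0856). At 72 hpf the brighter set read 8.24, 8.63 and 8.57 for Gulfport, Fort Morgan and Perdido Key. The dimmer set read 7.80, 8.02 and 8.05, against 8.53, 8.44 and 8.30 in the controls, so both sets had all 3 exposed arrays below all 3 controls. At 48 and 96 hpf the Gulfport arrays read 9.04 and 9.24 on the brighter set. On the dimmer set they read 8.44 and 8.62, against controls of 8.49 at 48 hpf and 8.69 and 8.93 at 96 hpf.

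F7i was dim in embryos up to 72 hpf. Its control signal was 5.26 at 48 hpf, 5.21, 5.42 and 5.21 at 72 hpf, and 6.13 and 5.99 at 96 hpf. The difference over the last interval was 0.78 (limma, adjusted p = 0.00481). F7i entered the test only through the 96 hpf control at 6.13, so nothing is read from that p-value. With values under 6 set to 6 the difference was 0.07 (limma, adjusted p = 0.481). The exposed arrays read 4.18 for Gulfport at 48 hpf, 4.26, 4.48 and 4.50 for Gulfport, Fort Morgan and Perdido Key at 72 hpf, and 5.80 for Gulfport at 96 hpf. The exposed values at 48 and 72 hpf lie below the lower quartile of all probe sets on their arrays. At that signal the summary compresses differences and no detection call was available. In the RefSeq gene order of assembly GRCz12tu, f7i stands on chromosome 1 between f7 and f10, and of these neighbours only f7, coagulation factor VII itself, was tested. F7 differed by -0.28 between exposed and control arrays at 72 hpf (limma, adjusted p = 0.535) and by 0.34 between controls at 96 and 72 hpf (adjusted p = 0.142).

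A2m2e, a2m2f and a2m2h are alpha-2-macroglobulin-like genes that lie in 1 cluster on chromosome 15 in that gene order; the human protein traps proteases in plasma. A2m2h rose after 72 hpf, a2m2f read higher in its 96 hpf controls, and a2m2e passed in neither interval with all controls. A2m2f read 4.52 in the 48 hpf control, 4.54, 4.49 and 4.60 at 72 hpf, and 6.21 and 6.30 at 96 hpf. That is a rise of 1.71 over the last interval (limma, adjusted p = 3.42e-05). A2m2f entered the test only through these 96 hpf controls, so nothing is read from that p-value. A2m2h read 7.59, then 7.37, 7.57 and 7.74, then 8.81 and 8.91, a rise of 1.299 (adjusted p = 0.000608). A2m2h was level before 72 hpf and had risen clear of all earlier arrays by 96 hpf. All a2m2f values at 48 and 72 hpf, exposed ones too, lay below the lower quartile of their arrays. At that signal differences are compressed, so no level course is read for a2m2f. A2m2e read 7.78, then 7.28, 8.52 and 8.55, then 7.79 and 8.0003, with no such rise (-0.22, adjusted p = 0.733). Its replicate 1 at 72 hpf stood more than 1 log2 unit below the other controls of that age. Without that array a2m2e passed in both intervals, higher by 0.75 at 72 than at 48 hpf (limma, adjusted p = 0.0189) and different by -0.64 between 96 and 72 hpf (adjusted p = 0.0303).

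The exposed arrays of the cluster were low for Gulfport at 72 hpf. A2m2h read 6.77, 7.23 and 7.53 for Gulfport, Fort Morgan and Perdido Key, so that Perdido Key lay within the controls. A2m2f read 4.05, 4.40 and 4.60 and a2m2e read 7.07, 7.56 and 7.78, the last pair of a2m2e values within its wide control range. Gulfport at 48 hpf read 7.39 for a2m2h, 4.46 for a2m2f and 7.65 for a2m2e, and at 96 hpf 8.49, 5.95 and 7.86. At 96 hpf the a2m2f and a2m2h values were below both controls, with differences of -0.31 and -0.37 from the control means. A2m2f entered the test only through these controls, so nothing is read from its place below them. A probe set annotated to 5 a2m2 genes read 7.63, 8.19 and 8.52 for the emulsions in the same order at 72 hpf, against 8.15, 8.93 and 9.02 in the controls. A probe set annotated to 7 a2m2 genes read 9.02, 9.46 and 9.92, against 9.62, 10.27 and 10.32. In both, control replicate 1 was the lowest control, and another shared set, of a2m2e and a2m2d, stayed between 4.20 and 4.60 in all 11 arrays.

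Ces3 encodes a carboxylesterase, an enzyme family that hydrolyses esters of drugs and lipids in the liver. Its control signal was 7.70 at 48 hpf, 7.75, 8.71 and 8.20 at 72 hpf, and 7.53 and 7.87 at 96 hpf, and neither step passed the threshold (0.52 and -0.52; adjusted p = 0.240 for the second, limma). The exposed arrays read 7.18 for Gulfport at 48 hpf, 7.21, 7.65 and 8.20 for Gulfport, Fort Morgan and Perdido Key at 72 hpf, and 7.74 for Gulfport at 96 hpf. The controls at 72 hpf spread widely for ces3 (SD 0.48, n = 3) and a2m2e (SD 0.72, n = 3). A control range of at least 0.9 was found in 2 of 9 members, these same genes, against 1.1% of all probe sets tested. In both genes replicate 1 was the lowest control by at least 0.4, as it was in 2.21% of all probe sets. The limits of 0.9 and 0.4 were not set beforehand, so nothing is read from these shares. The neighbour ces2a, another carboxylesterase, differed by -0.05 between exposed and control arrays at 72 hpf (adjusted p = 0.960, limma).

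**Figure D2:**
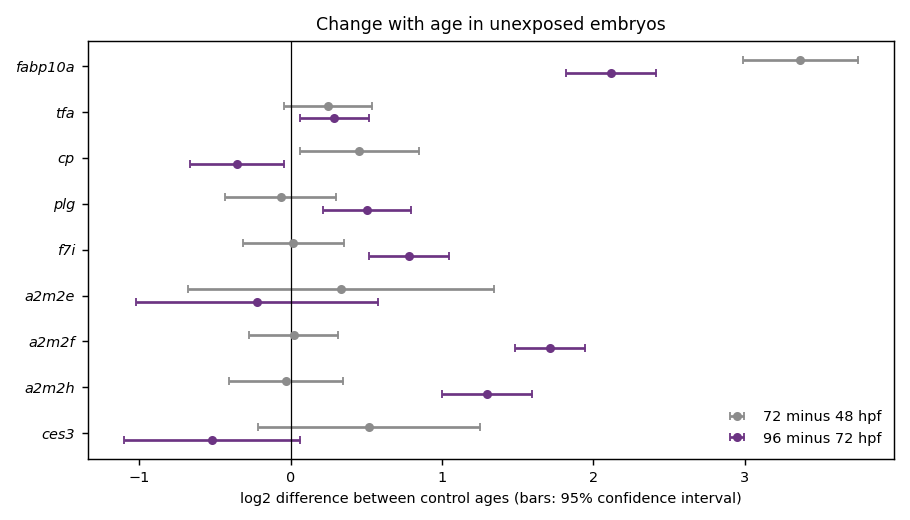
Difference between control ages (log2, horizontal axis) for each gene, as 72 minus 48 hpf and 96 minus 72 hpf, with 95% confidence intervals from limma as bars. Fabp10a gained 3.37 and 2.12 in the successive intervals, while a2m2f and a2m2h gained 1.71 and 1.299 in the later interval. A2m2f and f7i entered the test only through 96 hpf controls, so nothing is read from their later differences.

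The comparison of the 3 exposed arrays with the 3 controls at 72 hpf asks what the emulsions shared. F7i fell by 0.87 log2 units (SE 0.11, adjusted p = 0.0143 by limma), and no other member passed. That is 1 of 9 genes lower, against 0.0918% of all probe sets tested. The differences of the other members were -0.61 for cp (adjusted p = 0.165), -0.48 for plg (0.324), -0.44 for tfa (0.472), -0.65 for a2m2e (0.633), -0.53 for ces3 (0.642), -0.38 for a2m2h (0.612) and -0.19 for a2m2f (0.730). With fabp10a at -0.02, all 9 were below 0, as were 55.4% of all probe sets. The median of the 9 was -0.48, beside -0.02 for all. All 3 exposed arrays lay below all 3 controls in 4 of 9 genes (tfa, cp, plg and f7i), against 6.58% of all probe sets. The 9 genes were chosen with earlier results of these data known. Nothing is therefore read from such shares, here or in the other exposure comparisons. The f7i call was lost when any 1 control or the Fort Morgan array was left out (adjusted p from 0.0555 to 0.0689) and when values under 6 were set to 6, since f7i lies under 6 in all 6 arrays.

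With age as a factor over all 11 arrays, f7i and cp passed the threshold as lower. The f7i difference was -0.76 (SE 0.11, limma adjusted p = 0.00482) and the cp difference -0.53 (SE 0.10, adjusted p = 0.0185). F7i entered the test only through a 96 hpf control (6.13), which had to be high, so nothing is read from its p-value here. These are 2 of 9 genes, against 0.235% of all probe sets tested lower. The other members lay between -0.40 for a2m2e (adjusted p = 0.582) and 0.06 for fabp10a (adjusted p = 0.958), with plg at -0.32, a2m2h at -0.35, ces3 at -0.39, tfa at -0.24 and a2m2f at -0.20. The cp call was lost without control replicate 3 at 72 hpf (adjusted p = 0.0545), without Fort Morgan (0.0582) and without either array at 48 hpf (0.0723). With only Gulfport and control arrays, neither gene passed (0.0856 for cp, 0.0530 for f7i). With values under 6 set to 6, the f7i difference shrank to -0.02 (adjusted p = 0.913).

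The arrays at 72 hpf fell into 2 classes by the lower quartile of their values, with control replicate 2 and Perdido Key in the lower class and the other 4 arrays in the higher. Exposed minus control within the lower and the higher class was -0.92 and -0.84 for f7i, -0.60 and -0.61 for cp, and -0.48 and -0.48 for plg. It was -0.51 and -0.54 for ces3 and -0.74 and -0.60 for a2m2e. The lower class sets 1 exposed array against 1 control, so nothing is read from the closeness of these pairs of values. For ces3 the control of that class was the highest of the 3 (8.71). Against the mean of all 3 controls Perdido Key differed by -0.02 for ces3. The values were -0.15 and -0.58 for tfa, -0.04 and -0.56 for a2m2h, 0.11 and -0.34 for a2m2f, and 0.95 and -0.51 for fabp10a. In those genes the Perdido Key array and its class cannot be told apart.

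**Figure D3:**
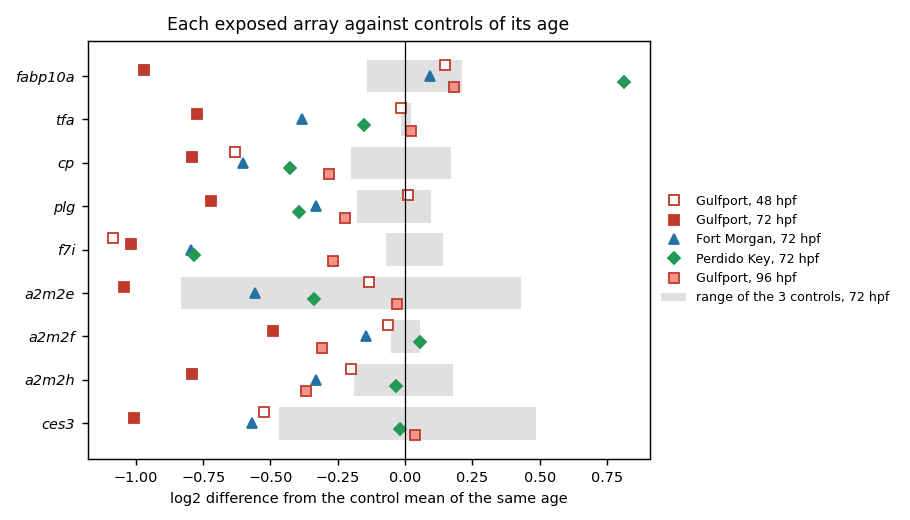
Difference of each of the 5 exposed arrays from the mean of the controls of its age (log2, horizontal axis) for each gene, with grey bars for the range of the 3 controls at 72 hpf. The Gulfport array at 72 hpf lies between -0.49 and -1.05 for all 9 genes, and fabp10a ranges from -0.97 for Gulfport to 0.81 for Perdido Key at that age.

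Taken singly against the same 3 controls, the Gulfport array at 72 hpf was the lowest for all of these genes. Fabp10a fell by 0.97 (SE 0.16, limma adjusted p = 0.0244), tfa by 0.77 (adjusted p = 0.0215), f7i by 1.02 (adjusted p = 0.0146) and a2m2h by 0.79 (adjusted p = 0.0490). That is 4 of 9 genes lower, against 0.969% of all probe sets tested. Short of the threshold lay cp at -0.79 (adjusted p = 0.0543), plg at -0.72 (0.0584) and a2m2f at -0.49 (0.0928), while ces3 at -1.01 (0.153) and a2m2e at -1.05 (0.278) had the widest control spread. The Gulfport array was the lowest of the 6 arrays at 72 hpf in 9 of 9 genes, against 25% of all probe sets. Its f7i and a2m2f values lay below the lower quartile of that array. The median difference was -0.79, beside -0.02 for all. Without control replicate 1, 8 of 9 genes passed, among them a2m2e (-1.46, adjusted p = 0.00711) and ces3 (-1.24, adjusted p = 0.0477). Without replicate 2 only 1 of 9 passed, and without replicate 3 only 2 of 9. Over all 9803 probe sets 150, 36 and 32 were lower without replicates 1, 2 and 3 in turn, and 95 with all controls. With values under 6 set to 6 only tfa passed, as fabp10a (adjusted p = 0.110) and a2m2h (0.135) missed the threshold and f7i showed no difference.

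No member passed in the Fort Morgan or the Perdido Key array. For Fort Morgan 0 of 9 genes passed by limma (0.0204% of all probe sets were lower), with 3 lower at an unadjusted p under 0.05, against 3.71% of all. The largest difference was f7i at -0.80 (adjusted p = 0.114), and the median was -0.38. For Perdido Key 0 of 9 genes passed (0% of all probe sets were lower and 0.224% higher), with 3 lower and 1 higher at an unadjusted p under 0.05, against 4.75% of all in either direction. There fabp10a lay at 0.81 (adjusted p = 0.195) and f7i at -0.78 (adjusted p = 0.133), and the median was -0.15.

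The order Gulfport below Fort Morgan below Perdido Key held in 8 of 9 genes, against 22.9% of all probe sets tested. Among the 8 are f7i and a2m2f, whose values in these 3 arrays lay below the lower quartile of each array. The exception was plg, whose brighter probe set had Fort Morgan above Perdido Key by 0.06. Its dimmer set followed the order, with Fort Morgan minus Perdido Key at -0.03. For f7i, counted among the 8, that difference was only -0.01. The 3 sites share the same controls and have 1 array each, so the order carries no replicate check of its own. Between Gulfport and Perdido Key only fabp10a passed (difference -1.78, 95% confidence interval -2.25 to -1.32, limma adjusted p = 0.0448). That is 1 of 9 genes, against 0.0102% of all probe sets lower. The call was lost without control replicate 2 (adjusted p = 0.117) or 3 (0.0885) and with each array centred on its median (0.0569) or values under 6 set to 6 (0.167). The step from Fort Morgan to Gulfport was -1.06 for fabp10a (interval -1.53 to -0.60, adjusted p = 0.493), and that from Perdido Key to Fort Morgan was -0.72 (interval -1.19 to -0.26, adjusted p = 0.942). No probe set passed in either of these steps (0% of all). At an unadjusted p under 0.05 there were 3 of 9 members in the first, against 5.69% of all, and 1 of 9 in the second, against 4.79%.

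The Gulfport emulsion was also applied in an early and a late window. At 48 hpf, with 1 array a side and no test, f7i differed by -1.08, the only member past 1 log2 unit. Over all probe sets 0.286% were lower by that much. The f7i value of this Gulfport array (4.18) lay below the lower quartile of the array, where differences are compressed. Cp differed by -0.63 and ces3 by -0.52, while tfa, plg and fabp10a lay at -0.02, 0.01 and 0.15. At 96 hpf 0 of 9 genes passed by limma (0.0918% of all probe sets did), and 0 of 9 had an unadjusted p under 0.05, against 4.63% of all. The values lay between -0.37 for a2m2h and 0.18 for fabp10a, with cp at -0.28 and f7i at -0.27. F7i and a2m2f entered the test only through 96 hpf controls, so nothing is read from their differences at 96 hpf. The Gulfport difference was higher at 96 than at 72 hpf in all 9 genes, by 0.18 to 1.15, where 50.1% of all probe sets were lower. The test of that change gave 1.15 for fabp10a (95% confidence interval 0.60 to 1.71, limma adjusted p = 0.191), 0.79 for tfa (0.205) and 0.75 for f7i (0.279). No probe set passed (0% of all), and 3 of 9 members had an unadjusted p under 0.05, against 9.72% of all.

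Other genes of plasma and liver, from lists that leave out the 9, had medians nearer 0 at 72 hpf. The 9 genes and the lists were chosen with earlier results of these data known, so nothing is read from that contrast. The counts below 0 that follow stand beside 55.4% of all probe sets tested. They also stand beside 8 of 9 markers of muscle, skin, lens and glia, whose median was -0.17. Among coagulation and fibrinolysis genes 12 of 36 were tested and none passed, with a median of -0.15 and 11 of 12 below 0. The genes of that list with the widest differences were f13a1b, a factor XIII subunit (-0.29), and f7. Among apolipoproteins and lipid transport genes 16 of 32 were tested, none passed and the median was -0.05. For the Gulfport array alone 2 of these were lower by limma, apoba, the core protein of very low density lipoprotein (-1.06, adjusted p = 0.00889), and apoda.2 (-1.45, adjusted p = 0.00765). Among complement and acute phase genes 14 of 44 were tested, with a median of -0.17 and 12 of 14 below 0. Complement factor D, cfd, was the only one of these that passed with age as a factor (-0.69, adjusted p = 0.00236). Among plasma carriers and protease inhibitors 18 of 45 were tested, with a median of -0.19 and 13 of 18 below 0. For the Gulfport array alone their median was -0.41. In the Perdido Key array alone, complement (-0.25) and coagulation genes (-0.18) had medians further from 0 than the 9 (-0.15). Apolipoprotein (0.03) and plasma carrier genes (-0.01) had medians nearer 0 there. Serpina1l, an alpha-1-antitrypsin-like protease inhibitor, fell with age as a factor (-0.50, adjusted p = 0.0280) and in the Gulfport array (-0.92, adjusted p = 0.0186), where igfbp2a also fell (-0.89, adjusted p = 0.0352).

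Liver enzymes and regulators had medians near 0. Of 28 metabolic enzymes tested of 47 listed, none passed at 72 hpf and the median was -0.04. With age as a factor the carboxylesterase ces2b (0.88, adjusted p = 0.00312) and the gluconeogenic enzyme fbp1a (0.45, adjusted p = 0.0302) rose, both by limma. In the Gulfport array agxta, which detoxifies glyoxylate, fell by 0.70 (adjusted p = 0.0334) and cth, a cysteine-forming enzyme, rose by 0.75 (adjusted p = 0.0242). In controls 16 of these 28 enzymes rose and 1, bhmt, fell from 72 to 96 hpf, against 6.29% and 3.31% of all probe sets. Their median was 0.62. How many of them passed the filter only through 96 hpf arrays was not counted. Of 15 liver transcription factors tested of 30 listed, none passed at 72 hpf, the median was 0.05, and the widest differences were those of cebpb (0.71) and nr0b2a (0.51). Of 6 iron and copper handling genes tested of 23 listed, none passed and the median was 0.14, with the iron transporter slc11a2 at 0.30 and the ferritin gene fth1a at 0.24. Igfbp2a, agxta and cth, and rbp2a below, were named after their values were seen.

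**Figure D4:**
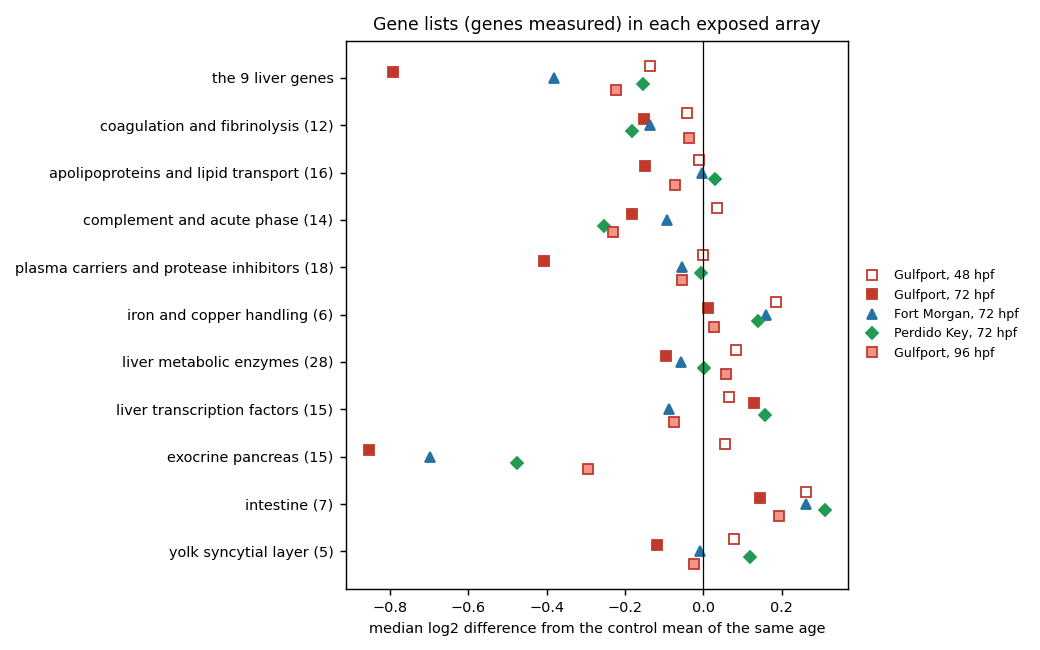
Median difference of each gene list (number of genes measured) from the controls of the same age, for each of the 5 exposed arrays (log2, horizontal axis). For the Gulfport array at 72 hpf the 9 liver genes (-0.79) and the exocrine pancreas list (-0.85) lie lowest. The 9 genes and the lists were chosen with earlier results of these data known, so nothing is read from their places.

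Markers of other organs were read beside these results. Exocrine pancreas markers were low in the same arrays. Of 15 tested of 23 listed, 14 were below 0 at 72 hpf, as were 55.4% of all probe sets. The median of these markers was -0.73 and none passed, led by the proteases cela1.6 (-1.40) and prss1 (-1.17). In the Gulfport array 5 of the 15 fell, against 0.969% of all probe sets, with a median of -0.85. The log2 of their summed signal was 11.72 to 12.19 in the 72 hpf controls, 10.41 for Gulfport, 10.98 for Fort Morgan and 11.32 for Perdido Key, the same order as most of the liver genes. Of the intestinal markers 7 of 10 were tested, 2 of the 7 were below 0, the median was 0.26, and fabp1b.1 rose by 0.81 (limma, adjusted p = 0.00543), while rbp2a fell by 1.46 in the Gulfport array (adjusted p = 0.00679). Yolk syncytial layer markers, of which 5 of 8 were tested, had a median of 0.05 over the 3 emulsions. In the Gulfport array at 72 hpf their median was -0.12, with 3 of 5 below 0, among them apoba (-1.06). Their summed signal was 13.12 for Gulfport against 13.10 to 13.18 in the controls. Medians were 0.17 for erythroid, 0.04 for myeloid and 0.00 for pronephric markers and -0.17 for markers of muscle, skin, lens and glia, with none of these passed at 72 hpf. With age as a factor the erythroid alas2, the first enzyme of haem synthesis in red cells, rose by 0.43 (limma, adjusted p = 0.0146). The part of other organs in the liver gene results was not tested.

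Likeness over the 11 arrays was described by Pearson's r, which for most genes follows the order of ages that all share. The 9 genes were not alike: a2m2f and a2m2h had r = 0.98, tfa and a2m2h 0.90, plg and a2m2h 0.90 and cp and ces3 0.87, but a2m2f and ces3 -0.01. Among tested genes outside the 9 that ranged over at least 1 log2 unit, the closest to fabp10a were rbp3, a retinoid-binding protein of photoreceptors (0.99), and cyp8b1.1, a bile acid hydroxylase (0.99). The closest to tfa were mat1a, which makes S-adenosylmethionine in liver (0.93), and acsf2 (0.92). Cp was closest to the mucin muc5.1 (0.91) and foxg1b (0.88), plg to cdo1 (0.94) and adh8b, and f7i to ccl34b.1 (0.94) and pfkma (0.93). A2m2h was closest to the gluconeogenic fbp1b (0.99) and il13ra2 (0.96), and a2m2f to the pancreatic elastase ela2 (0.99) and tgm1l3 (0.99). A2m2e was closest to ptprb (0.85) and col11a2, and ces3 to krt1-19e (0.88) and cyp2r1 (0.86). Each r rests on 11 arrays of 3 ages, and no test was made of it.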

How the data were processed

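The 11 arrays were Affymetrix zebrafish arrays of whole-embryo RNA, in 8 groups read from the sample titles, 6 of them with 1 array. Values were deposited as log2 signals of probe sets, which the authors made with RMA, per the submitters' processing notes; the program that ran it is not given in the sources used here. The method normalizes between arrays, so a change in the total RNA of an embryo would not show. It compresses differences of dim probe sets. No scanner files were used, so no detection call was made.

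Of 15617 probe sets, 115 AFFX controls were left out, and the 9803 that reached a log2 value of 6 in some array were tested. Symbols came from the platform annotation, updated through RefSeq (assembly GRCz12tu, used only for names and gene order). Where a gene had several probe sets, that with the highest mean stood for it. Tests used lmFit and eBayes of limma 3.58.1 under R 4.3.3. P-values were adjusted by Benjamini-Hochberg over all 9803 and called under 0.05. The fits were tested on simulated data in which every array had the residual spread of the controls. Such data cannot check the assumption that single exposed arrays vary like the controls. Controls were compared over the 6 control arrays, exposed and control arrays at 72 hpf as 3 against 3, and exposed with control over all 11 arrays with an age factor. Single arrays, sites and windows were contrasts with 1 mean per group, with the residual spread from controls alone. The 48 hpf pair had no test and a call at 1 log2 unit. Replicate numbers of the controls were checked for pairing: over the 9803 probe sets the difference of replicates 1 and 2 at 72 hpf correlated at -0.067 with that at 96 hpf.

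The 9 genes and all lists were chosen with earlier results of these data known. Named are the 9 genes, cyp1a, list genes past the threshold at 72 hpf or with age as a factor and otherwise the 2 with the widest difference at 72 hpf, and the 2 genes most like each of the 9. Alternatives were the filter, a floor at 6, median centring, a trended robust prior, other designs, each array left out and the replicate block. The number of arrays limits precision.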

Additional observations from a re-analysis of the deposited data

Results flagged for a closer look

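The response of fabp10a, the hepatocyte fatty acid binding protein, differed between 2 of the emulsions at 72 hpf. The Gulfport array read 8.41 and the Perdido Key array 10.19 on the log2 scale, on either side of the controls at 9.30, 9.24 and 9.59. The difference of -1.78 passed a test of the difference itself (limma, adjusted p = 0.0448), with 1 array per site whose spread was taken to equal that of the controls. The call was lost with each array centred on its median (adjusted p = 0.0569, limma), with values under 6 set to 6 (0.167) and without control replicate 2 (0.117) or 3 (0.0885). The Perdido Key array is in the class with the lower quartile of signal and the Gulfport array in the other, and the part of that in the difference was not tested.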

How the results depend on the processing

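For single values of the 9 genes 1203 alternatives were computed: 1161 kept direction and side of the threshold, 32 kept direction and missed it, 10 kept direction and passed it, and 0 reversed. Some alternatives cannot change a direction, such as another prior, or controls left out of a difference between 2 emulsions. Values that missed the threshold with the main settings count as kept when they miss it again. Nothing is therefore read from this tally. Counts over all probe sets moved by over 1.5 times as follows, with the cause not tested beyond the setting itself. With values under 6 set to 6, calls numbered 556 (941 otherwise) for controls at 96 against 72 hpf, 8 (56) for exposed arrays at 72 hpf, 80 (266) for Gulfport at 72 hpf, 4 (22) for Fort Morgan, 5 (22) for Perdido Key, 14 (9) for Gulfport at 96 hpf and 9 (0) for the change between windows. A trended, robust prior gave 41, 36, 26 and 2 for the last 4 of these. The mean of the site contrasts gave 129 (56), Gulfport and control arrays alone 75 (128) with age as a factor, no filter 18 and median centring 15 (9) for Gulfport at 96 hpf. Median centring gave 0 (6) for Gulfport against Perdido Key. At 48 hpf a threshold of 0.5 gave 325 (54) probe sets and 3 (1) of the 9 genes. Of the 9 genes, calls were 3 (5) for controls at 96 against 72 hpf under a filter of 7 and under the floor of 6. Both settings gave 0 (1) for exposed arrays at 72 hpf and 1 (2) with age as a factor. The filter of 7 left out f7i and a2m2f, so only 7 genes were tested there. For controls at 96 against 72 hpf the floor ended the calls of f7i (adjusted p = 0.481) and plg (0.0987). The floor left 1 (4) for Gulfport at 72 hpf and 0 (1) for Gulfport against Perdido Key, as centring did, and Gulfport alone left 0 (2) with age as a factor. Leaving out 1 array at a time gave 382 to 941 calls and 4 to 5 of the 9 genes for controls at 96 against 72 hpf, 1240 to 1529 and 1 to 2 for 72 against 48 hpf, 23 to 83 and 0 to 1 for exposed arrays at 72 hpf, 81 to 124 and 1 to 2 with age as a factor, 100 to 320 and 1 to 8 for Gulfport at 72 hpf, 12 to 21 for Fort Morgan, 17 to 19 for Perdido Key, 6 to 14 for Gulfport at 96 hpf, 0 to 16 and 0 to 1 for Gulfport against Perdido Key and 0 to 50 for the change between windows. The count for controls at 96 against 72 hpf was lowest without replicate 2 at 96 hpf. With the replicate number as a block it was 784, with 5 of the 9 genes. The correlation of -0.067 gave no sign that these numbers pair the ages, but it cannot exclude a pairing. At both ages replicate 1 is in the higher class by lower quartile and replicate 2 in the lower. Classes of arrays by lower quartile as a block, an alternative chosen after seeing the data, gave 781, 62 and 134 calls for controls at 96 against 72 hpf, exposed arrays at 72 hpf and age as a factor. The site order with median centring was also added after seeing the data, and its result is not given here.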
